A study of Mus musculus with 30 samples.

Results

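Of the 55416 gene IDs counted in mouse fracture callus, 10 are described here, the 6 proteases *Adamts1*, *Adamts2*, *Adamts4*, *Adamts5*, *Adamts9* and *Adamts12* and the 4 tissue inhibitors *Timp1*, *Timp2*, *Timp3* and *Timp4*. They were chosen by gene symbol, and all 10 passed the filter on low counts in every comparison. Total RNA was sequenced from calluses of non-stabilized closed fractures of the tibial diaphysis in mice of 7 to 12 weeks. P-Apex1KO mice were Prrx1-Cre+;Apex1 C/C, so *Apex1* was deleted in limb bud mesenchyme and its descendants, and the blood, endothelial and other cells of the callus kept the gene. WT mice were littermates of 3 kinds, Cre carriers with 1 floxed allele (C/+) and animals without Cre that were C/C or C/+. One callus per mouse was sequenced, with 4 mice of each genotype at 3 days post fracture (dpf), 5 WT and 3 P-Apex1KO mice at 6-dpf, and 4 WT beside 3 P-Apex1KO mice at each of 10- and 14-dpf. Both sexes were present in each group, except that the 3 P-Apex1KO mice at 14-dpf were all female, beside 1 female and 3 males in WT.

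ADAMTS proteins are secreted zinc metalloproteinases that cut matrix proteins outside the cell. Several of them cleave aggrecan and versican, the large hyaluronan-binding proteoglycans of cartilage and provisional matrix, and others trim the ends of procollagens so that fibrils can form. TIMPs are small secreted proteins that bind the active site of metalloproteinases. Their spectra differ, and TIMP3, which is held in the matrix, is the member best known for inhibiting the aggrecanases as well as matrix metalloproteinases (MMPs).

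Between 18334389 and 43111491 reads per library fell on genes. Levels are read counts scaled to library size (CPM) with TMM factors set over all 30 libraries. Differences were tested per time point on the counts by quasi-likelihood in edgeR, accounting for sex, and a gene was called at a Benjamini-Hochberg adjusted p under 0.05, computed over every gene that passed the filter. *Apex1* itself was at 20.7 to 28.9 CPM in WT and 15.1 to 15.9 CPM in P-Apex1KO at 6-dpf, and its genotypes did not overlap at 6-, 10- and 14-dpf. At 3-dpf they overlapped, and the library labelled P-Apex1KO replicate 4 had 34.6 CPM, above the highest WT library with 33.1 CPM. WT replicate 3 at 10-dpf stood apart from the other WT libraries of that day for several members (*Timp2* 886 against 425 to 506 CPM). Cartilage, osteoblast and mesenchyme markers were detected in all groups, with none at 0 throughout. The 3- and 6-dpf samples are named in another way than the 10- and 14-dpf samples, so the levels are not compared between 6- and 10-dpf.

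On GRCm39, *Adamts1* (chr16:85590579-85600009) and *Adamts5* (chr16:85653061-85698716) are neighbours on the minus strand of chromosome 16. *Adamts2* lies at chr11:50492787-50698400, *Adamts4* at chr1:171077986-171089841, *Adamts9* at chr6:92749680-92920520 and *Adamts12* at chr15:11064876-11349318. *Timp1* (chrX:20736316-20740976), *Timp3* (chr10:86136236-86185371) and *Timp4* (chr6:115187773-115229336) each lie within a synapsin gene (*Syn1*, *Syn3* and *Syn2*) on the opposite strand, which the strand-specific counting keeps apart. *Timp2* (chr11:118191887-118246566) shares 332 exon bases on the same strand with *Cep295nl*. Strand does not tell reads on these bases apart, and how they were counted is not stated.

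The genomic bases just before *Adamts2*, *Adamts4* and *Adamts9* are shown because these are the members whose RNA differed between genotypes at both late times. Each is read 5′ to 3′ on the gene's strand from GRCm39, starts 250 bases before the canonical GENCODE start and stops at the annotated gene. Capitals mark a match to TGNGGT, a loose form of the RUNX motif, or its reverse complement ACCNCA (no match to the AP-1 motif TGANTCA, which is its own reverse complement, occurs in these sequences).
Adamts2 (chr11:50492569-50492786, plus strand): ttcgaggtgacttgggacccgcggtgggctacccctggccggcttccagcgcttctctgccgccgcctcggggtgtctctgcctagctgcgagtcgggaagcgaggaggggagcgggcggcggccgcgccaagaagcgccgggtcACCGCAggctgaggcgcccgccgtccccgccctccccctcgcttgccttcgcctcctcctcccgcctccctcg
Adamts4 (chr1:171077740-171077985, plus strand): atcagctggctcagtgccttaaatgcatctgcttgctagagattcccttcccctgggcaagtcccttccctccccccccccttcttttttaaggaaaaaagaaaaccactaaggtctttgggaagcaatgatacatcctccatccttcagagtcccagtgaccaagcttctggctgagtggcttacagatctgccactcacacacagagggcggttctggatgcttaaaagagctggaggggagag
Adamts9 (chr6:92920521-92920770, minus strand): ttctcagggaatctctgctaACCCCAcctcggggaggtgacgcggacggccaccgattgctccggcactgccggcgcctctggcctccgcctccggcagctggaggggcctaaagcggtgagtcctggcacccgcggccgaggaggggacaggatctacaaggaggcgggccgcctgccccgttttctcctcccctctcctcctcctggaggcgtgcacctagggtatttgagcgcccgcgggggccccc
*Adamts2* and *Adamts9* have 1 RUNX match each within 250 bases and *Adamts4* has none. Over the 10 members, 5 have a RUNX match and 0 an AP-1 match, where 39.5% and 6.19% of the 21614 protein-coding genes have one in a window of the same length. The G+C content of the 250 bases is 74% before *Adamts2*, 70% before *Adamts9* and 51.6% before *Adamts4*. These matches describe the letters only.

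**Figure D1:**
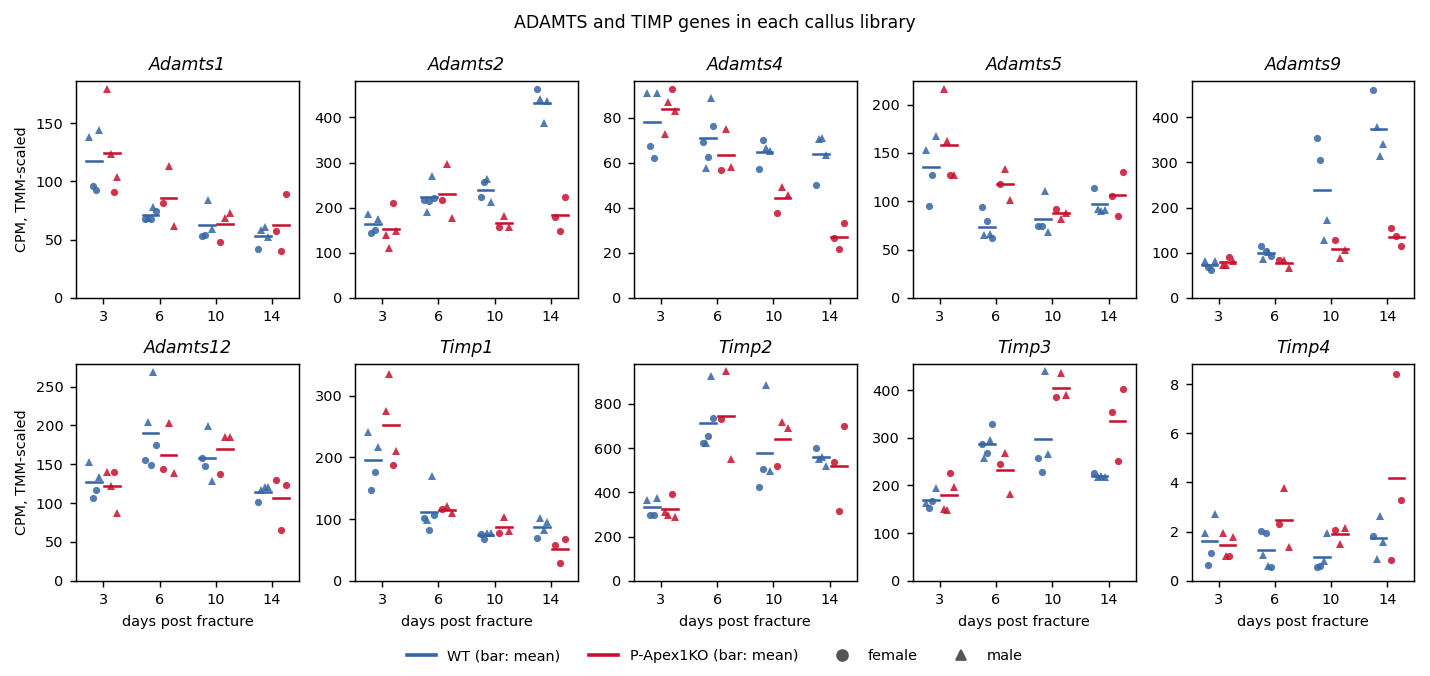
Each point is 1 callus library, with the level in CPM (TMM-scaled) on the vertical axis of each panel, from 0, and days post fracture on the horizontal axis; blue is WT, red P-Apex1KO, circles are females, triangles males and bars group means. *Adamts2* and *Adamts9* separate between genotypes at 14-dpf, while *Timp4* stays under 9 CPM in every library.

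Per kilobase of exon, *Timp1* and *Timp2* were the most abundant members in the early callus. The exon length joins all annotated exons of a gene and can exceed that of the transcripts expressed, so the order among genes is approximate. In WT at 3-dpf the CPM per kilobase of exon was 99.6 ± 21.2 (SD, n = 4) for *Timp1* and 74.6 ± 9.32 for *Timp2*, and 20.8 ± 2.20 for *Timp3*. Among the proteases *Adamts1*, which cleaves versican and aggrecan, was at 21.5 ± 4.93 and *Adamts2*, the procollagen N-proteinase of fibrillar collagens, at 17.3 ± 2.19. *Adamts5*, *Adamts4* and *Adamts12* lay between 11.7 and 12.4 and did not differ beyond their spread, and *Adamts9* followed at 4.86 ± 0.713. *Timp4*, an inhibitor of narrow tissue distribution, was at 0.208 ± 0.120 and was last in every group of mice. In WT at 14-dpf the order was a different one. The 14-dpf samples are named in another way than the 3-dpf samples, so this is not read as a change over time. *Timp2* led with 125 ± 7.27, *Adamts2* (45.7 ± 3.40) and *Timp1* (44.3 ± 7.40) were next and did not differ beyond their spread, and *Timp3* (27.0 ± 0.442) and *Adamts9* (24.8 ± 4.22) stood ahead of the other 4 proteases, which lay between 8.85 and 10.5.

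**Figure D2:**
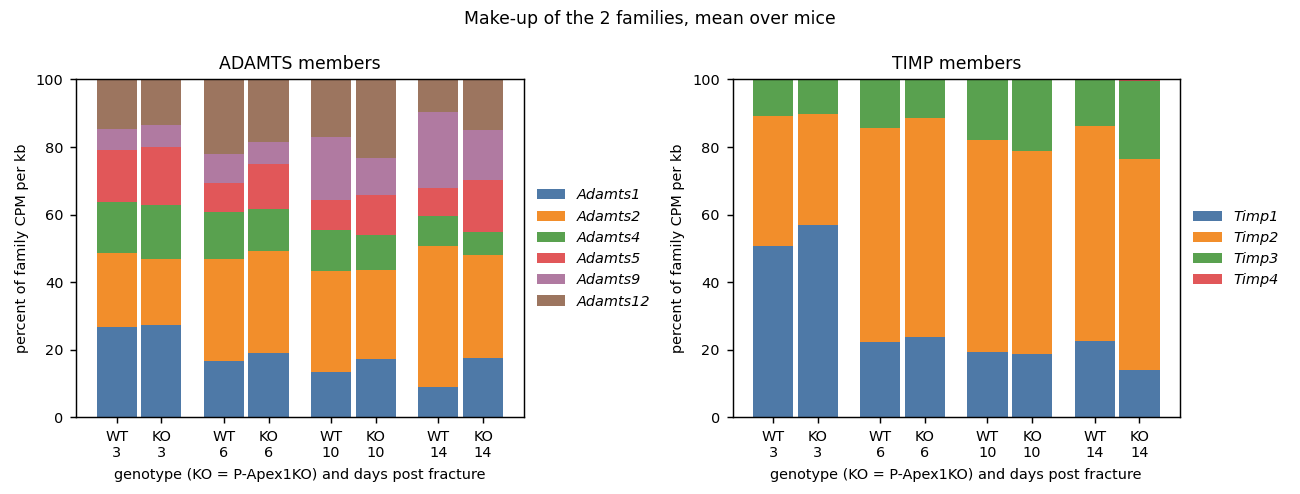
Stacked bars give the mean share of each gene in the summed CPM per kilobase of the 6 ADAMTS members (left) and the 4 TIMP members (right), in percent, by genotype and days post fracture. *Timp1* gives way to *Timp2* between 3- and 6-dpf in both genotypes, and at 14-dpf *Adamts2* and *Adamts9* make up more of the protease sum in WT than in P-Apex1KO.

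The make-up of the TIMP family turned over between 3- and 6-dpf. *Timp1* gave 50.7% ± 3.23 (SD, n = 4) of the summed TIMP level per kilobase in WT at 3-dpf and 22.4% ± 2.68 (n = 5) at 6-dpf, and *Timp2* went from 38.4% ± 2.27 to 63.3% ± 1.65. In P-Apex1KO the *Timp1* share was 57.0% ± 9.33 (n = 4) at 3-dpf and 23.7% ± 3.83 (n = 3) at 6-dpf. Neither share's ranges at the 2 days overlapped in either genotype.

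The single genes moved likewise. In WT, *Timp1*, an inhibitor of most secreted MMPs, was at 240, 147, 177 and 216 CPM at 3-dpf and at 101, 99.2, 82.9, 170 and 106 CPM at 6-dpf. All but WT replicate 4 were lower at 6-dpf than every 3-dpf library, and the log2 fold change was -0.79 ± 0.16 (SE; adjusted p = 0.00149). *Timp2*, which inhibits MMPs and also helps MMP14 to activate pro-MMP2, rose from 366, 299, 296 and 372 CPM to 622, 621, 655, 926 and 737 CPM, with no overlap (log2 fold change 1.07 ± 0.16, adjusted p = 0.000135). In P-Apex1KO the same genes changed, *Timp1* by -1.06 ± 0.19 (adjusted p = 0.00213) and *Timp2* by 1.21 ± 0.18 (adjusted p = 0.000565). Of the 10 members, 3 fell and 4 rose in WT from 3- to 6-dpf, where 15.1% and 15.4% of the 20468 genes tested fell and rose. In P-Apex1KO 1 fell and 1 rose, where 6.91% and 7.1% of genes did so. *Adamts2* was called in neither genotype, but in P-Apex1KO DESeq2 called it higher (0.61, adjusted p = 0.0288). So did edgeR without the sex term (0.0494), with library size alone (0.0421) and with all 30 libraries in one model (0.0197). Without P-Apex1KO 3-dpf replicate 3, edgeR called *Adamts2* (0.86, adjusted p = 0.00391) and *Timp3* (0.50, 0.0415) higher there. In WT the model of all 30 libraries called *Adamts2* higher (0.44, 0.0347).

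Among the proteases in WT, *Adamts1* (-0.70 ± 0.18, adjusted p = 0.00776) and *Adamts5*, the second aggrecanase (-0.88 ± 0.19, adjusted p = 0.00297), fell on the log2 scale from 3- to 6-dpf. *Timp3* (0.71 ± 0.13, adjusted p = 0.000903), *Adamts9*, which cleaves versican and aggrecan (0.40 ± 0.12, adjusted p = 0.0168), and *Adamts12*, a protease that cleaves the cartilage protein COMP (0.56 ± 0.17, adjusted p = 0.0198), rose. The calls of *Adamts9* and *Adamts12* are near the threshold. That of *Adamts9* was lost without WT 3-dpf replicate 2 (adjusted p = 0.0725) or replicate 3 (0.0836) with library size alone in place of TMM (0.257) and with all 30 libraries in one model (0.108), and that of *Adamts12* without WT 3-dpf replicate 2 (0.0635) or replicate 4 (0.0522) with library size alone (0.0862) and without a filter on low counts (0.0568). In P-Apex1KO the log2 changes of these proteases over the same days were -0.49 ± 0.20 for *Adamts1*, -0.40 ± 0.22 for *Adamts5*, -0.02 ± 0.13 for *Adamts9* and 0.41 ± 0.19 for *Adamts12*, none past the threshold. Without P-Apex1KO 3-dpf replicate 3 that of *Adamts12* passed (0.62, adjusted p = 0.0300). The change of the genotype difference from 3- to 6-dpf was called for 0 of the 10 members by edgeR, where 0.987% of genes had a lower and 0.318% a higher difference. In that test 1 member had an unadjusted p under 0.05 (*Adamts9*, -0.42 ± 0.17, adjusted p = 0.321). DESeq2 also called 0 of the 10, and over all 20468 genes it called 521 lower and 197 higher. The cause of a call in WT and none in P-Apex1KO was not tested.

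At 3-dpf no member differed between genotypes. The largest difference was *Timp4* (log2 fold change -0.31 ± 0.33), *Timp1* was at 0.24 ± 0.15, and the smallest adjusted p of the 10 was 0.862 (edgeR quasi-likelihood test). Of the 19866 genes tested 0% were called lower and 0% higher by edgeR, with 1216 at an unadjusted p under 0.05, and DESeq2 called 85. None of the 10 members had an unadjusted p under 0.05.

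At 6-dpf *Adamts5* was the member that differed. Its level was 94.5, 65.5, 79.3, 66.4 and 61.7 CPM in WT and 118, 133 and 101 CPM in P-Apex1KO. Every P-Apex1KO library was above every WT library, and the log2 fold change was 0.75 ± 0.15 (SE), a fold of 1.69, with an adjusted p of 0.0150. For the other aggrecanase, *Adamts4*, the 5 WT libraries gave 70.9 ± 12.3 CPM (SD) and the 3 P-Apex1KO libraries 63.4 ± 10.3 CPM (log2 fold change -0.17 ± 0.15, adjusted p = 0.530). *Adamts9* did not overlap between genotypes, with 85.5 to 115 CPM in WT and 65.5 to 84.3 CPM in P-Apex1KO, but its log2 fold change of -0.28 ± 0.12 had an adjusted p of 0.156. Thus 0 of the 10 members were called lower and 1 higher, against 5.61% and 5.31% of 20260 genes, and the median log2 fold change was 0.03 over the members and 0.01 over all genes. The call of *Adamts5* was lost without WT replicate 2 (adjusted p = 0.0606), WT replicate 4 (0.0620) or P-Apex1KO replicate 1 (0.0526), with a log2 fold change of 0.72 to 0.86 in these fits.

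In bulk RNA, fewer cells of a type and less RNA per cell cannot be told apart, and markers of several cell types moved with *Adamts5* at 6-dpf. The summed CPM of 11 cartilage markers was 32287 to 58815 in WT and 2256 to 4544 in P-Apex1KO, and 11 of 11 were called lower. The summed CPM of 12 muscle markers was 3165 to 5648 in WT and 7327 to 16685 in P-Apex1KO, with 10 of 12 called higher. Of 8 macrophage markers 6 were called higher, with sums of 716 to 911 CPM in WT and 1252 to 1456 CPM in P-Apex1KO. Of 8 adipocyte markers 6 were called higher, with sums that overlapped (125 to 253 CPM in WT and 198 to 334 CPM in P-Apex1KO). The osteoblast sum, which includes *Col1a1*, was 38373 to 53762 CPM in WT and 17765 to 27885 CPM in P-Apex1KO, with 8 of 10 markers called lower. Of 8 lymphocyte markers 4 were called higher, with sums that overlapped (37.2 to 109 and 59.7 to 159 CPM). The part of these cells in the *Adamts5* difference was not tested.

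**Figure D3:**
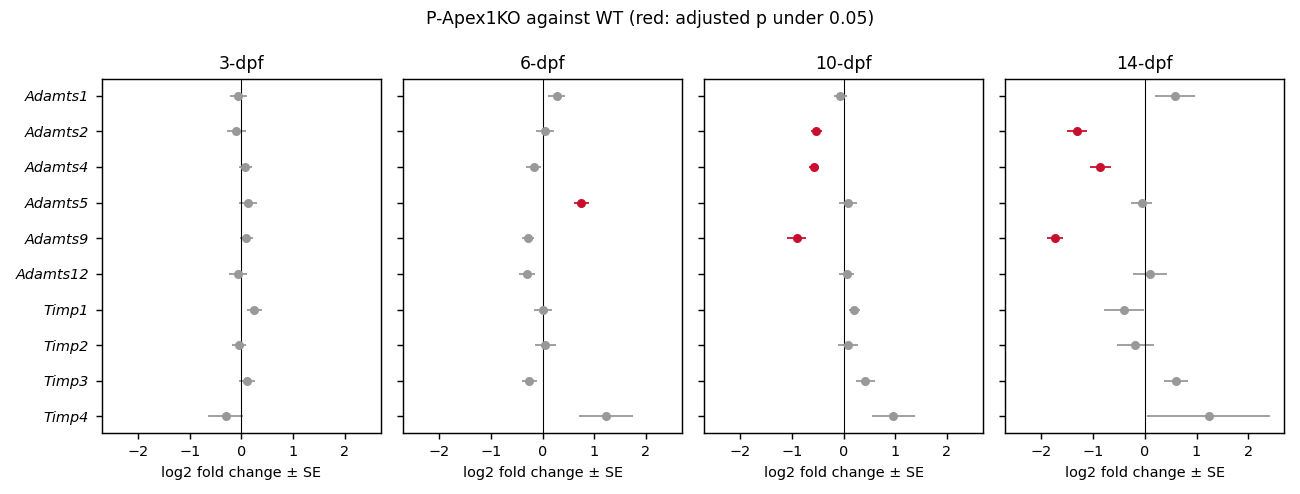
Points are log2 fold changes of P-Apex1KO against WT with standard errors as bars, 1 panel per time point and 1 row per gene; red marks an adjusted p under 0.05. *Adamts5* is the 1 called member at 6-dpf, and *Adamts2*, *Adamts4* and *Adamts9* are lower in P-Apex1KO at 10- and 14-dpf.

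At 10- and 14-dpf the same 3 proteases, *Adamts2*, *Adamts4* and *Adamts9*, were called lower in P-Apex1KO, and no member was called higher. *Adamts2* was at 225, 258, 263 and 213 CPM in WT and at 157, 181 and 158 CPM in P-Apex1KO at 10-dpf. At 14-dpf it was at 463, 442, 387 and 436 CPM in WT and at 179, 147 and 223 CPM in P-Apex1KO. The genotypes did not overlap at either time, the gap was wider at 14-dpf, and the log2 fold changes were -0.53 ± 0.11 (adjusted p = 0.0305) and -1.31 ± 0.20 (adjusted p = 0.00690).

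*Adamts9* showed the largest difference among the called members. Its level at 14-dpf was 460, 380, 313 and 342 CPM in WT and 154, 138 and 115 CPM in P-Apex1KO. Each WT library was above 2 times each P-Apex1KO library, with a log2 fold change of -1.74 ± 0.16, a fold of 0.300 (adjusted p = 0.00102). At 10-dpf the WT libraries differed by sex, with 354 and 306 CPM in the 2 females and 127 and 173 CPM in the 2 males, beside 127 CPM in the P-Apex1KO female and 89.0 and 105 CPM in the 2 P-Apex1KO males. The lowest WT male and the P-Apex1KO female were nearly level (127.5 and 127.2 CPM), and within each sex the P-Apex1KO libraries were the lower ones. With sex in the model the log2 fold change at 10-dpf was -0.91 ± 0.19 (adjusted p = 0.0333), and without it the call was lost (-1.15, adjusted p = 0.0975), as it was with library size alone (0.0561) and without a filter on low counts (0.0647).

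*Adamts4*, the first aggrecanase described, had lower counts and a smaller difference. It was at 57.2, 70.0, 66.4 and 65.3 CPM in WT and 37.6, 49.4 and 45.6 CPM in P-Apex1KO at 10-dpf (log2 fold change -0.57 ± 0.10, adjusted p = 0.0207). At 14-dpf it was at 50.3, 70.8, 71.0 and 63.3 CPM in WT and 26.6, 21.8 and 33.2 CPM in P-Apex1KO (-0.86 ± 0.20, adjusted p = 0.0337). No library of one genotype reached the other, and the lowest WT library at both times was a female. Since the P-Apex1KO mice at 14-dpf were all female, the genotype difference in a model with sex rests on the 1 WT female, whose levels were 50.3 CPM for *Adamts4*, 463 CPM for *Adamts2* and 460 CPM for *Adamts9*.

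The 3 lower members of 10 stand beside 3.44% of 18910 genes called lower at 10-dpf and 7.04% of 20228 at 14-dpf, and the 0 higher members beside 3.01% and 4.28%. The median log2 fold change over the 10 members was 0.07 at 10-dpf and -0.12 at 14-dpf, and that over all genes tested was -0.003 and 0.04. These genes also stand in a list of proteases that the study picked on the same libraries, so their count is not independent evidence of a direction. The calls at 14-dpf of *Adamts2* and *Adamts9* were kept when each library was left out in turn (highest adjusted p 0.0248 and 0.00673) and under all 7 other settings of the fit. The fit without WT replicate 1, the female, had no sex term. It set female P-Apex1KO mice against male WT mice, so genotype and sex cannot be told apart there. The call of *Adamts4* at 14-dpf was lost without WT replicate 2 (adjusted p = 0.0792), WT replicate 3 (0.0715), WT replicate 4 (0.0663) or P-Apex1KO replicate 1 (0.0562), and with library size alone (0.0648).

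The calls at 10-dpf were less firm, and none of the 3 was kept without WT replicate 1, WT replicate 2 or P-Apex1KO replicate 1. The adjusted p of *Adamts2* was then 0.0823, 0.0897 and 0.179, that of *Adamts4* 0.0624, 0.0530 and 0.132 and that of *Adamts9* 0.0839, 0.0966 and 0.164, with each log2 fold change still below 0. *Adamts2* also lost its call without WT replicate 3 (0.0585) or P-Apex1KO replicate 3 (0.0878) and with all 30 libraries in one model (0.0727), *Adamts4* without P-Apex1KO replicate 3 (0.0568), and *Adamts9* without WT replicate 4 (0.0827) or P-Apex1KO replicate 2 (0.0528).

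**Figure D4:**
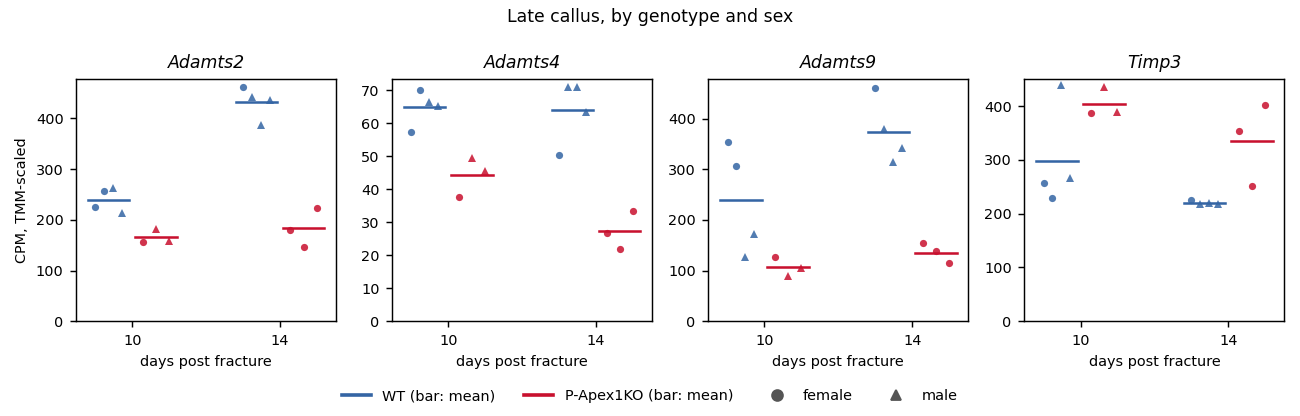
Levels in CPM (TMM-scaled, axis from 0) of *Adamts2*, *Adamts4*, *Adamts9* and *Timp3* at 10- and 14-dpf; each point is a library, circles are females, triangles males, and bars are group means. The *Adamts9* level of WT females at 10-dpf (354 and 306 CPM) lies above that of WT males (127 and 173 CPM), and at 14-dpf *Timp3* in P-Apex1KO (251 to 402 CPM) lies above WT (218 to 225 CPM).

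The other proteases were not called at the late times. The log2 fold changes at 10- and 14-dpf were 0.09 ± 0.17 and -0.06 ± 0.20 for *Adamts5*, 0.06 ± 0.15 and 0.10 ± 0.33 for *Adamts12*, and -0.06 ± 0.12 and 0.59 ± 0.39 for *Adamts1*. Approximate 95% intervals of the 14-dpf changes reach from -0.46 to 0.34 for *Adamts5* and from -0.55 to 0.74 for *Adamts12*, so differences of this size are not shut out by the test. In the protease sum per kilobase at 14-dpf, *Adamts2* gave 41.7% ± 1.47 in WT (SD, n = 4) and 30.6% ± 1.34 in P-Apex1KO (n = 3), and *Adamts5* gave 7.50% to 9.07% and 14.8% to 15.8%. The ranges of neither share overlapped, and the shares were not tested. A share also depends on the other genes of the sum. The level of *Adamts5* itself was 8.85 ± 1.03 CPM per kilobase in WT and 9.79 ± 2.08 in P-Apex1KO (SD).

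None of the inhibitors was called lower or higher in P-Apex1KO at the late times. *Timp3* at 14-dpf was at 225, 218, 219 and 218 CPM in WT and at 354, 251 and 402 CPM in P-Apex1KO. Every P-Apex1KO library was above every WT library, but the log2 fold change of 0.60 ± 0.23 had an adjusted p of 0.142. It passed in 4 of the 7 other settings, and without the sex term the adjusted p was 0.00726. Leaving out WT replicate 1, the female, and with it the sex term gave 0.0172, and without P-Apex1KO replicate 2, the lowest of the 3, it was 0.00265. At 10-dpf *Timp3* was at 257, 228, 440 and 265 CPM in WT and at 387, 435 and 389 CPM in P-Apex1KO. WT replicate 3 alone reached the P-Apex1KO range, and the log2 fold change was 0.42 ± 0.19 with that library (adjusted p = 0.218) and 0.67 without it (adjusted p = 0.0107). *Adamts5* also passed at 10-dpf without that library (0.33, adjusted p = 0.0499).

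*Timp1* at 14-dpf was at 68.7, 101, 81.6 and 95.0 CPM in WT and 57.3, 29.1 and 67.4 CPM in P-Apex1KO. These ranges did not overlap, yet the WT female was the lowest WT library and the log2 fold change with sex in the model was -0.40 ± 0.39 (adjusted p = 0.553). *Timp2* was at 558 ± 32.5 CPM (SD, n = 4) in WT and 519 ± 194 CPM (n = 3) in P-Apex1KO, with the 3 P-Apex1KO libraries spread from 316 to 702 CPM. *Timp4* had 10 to 175 reads per library, and its log2 fold changes were 1.22 ± 0.52 at 6-dpf, 0.96 ± 0.41 at 10-dpf and 1.23 ± 1.19 at 14-dpf with adjusted p from 0.170 to 0.548. At 10-dpf it was called higher without WT replicate 4 (1.53, adjusted p = 0.0281), and without P-Apex1KO replicate 1 its log2 fold change was 0.40 (adjusted p = 0.790). P-Apex1KO replicate 2 at 14-dpf, with 8.42 CPM, was its highest library. That library was the lowest of its group for each other member but *Adamts9*, and its summed mesenchyme markers were also the lowest (2515 CPM, beside 4453 and 5616 CPM). Without it *Adamts12* was called higher at 14-dpf (0.34, adjusted p = 0.0291).

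From 10- to 14-dpf, 2 members rose in WT and 0 fell, where 6.19% of 19705 genes rose and 4.92% fell. They were *Adamts2* (log2 change 0.84 ± 0.12, adjusted p = 0.00123) and *Adamts9* (0.89 ± 0.17, adjusted p = 0.00491), and the call of *Adamts9* was lost without the sex term (adjusted p = 0.168). *Adamts12* was called lower in WT by DESeq2 (-0.54, adjusted p = 0.0397). In edgeR with library size alone *Adamts12* (-0.59, 0.0471) and *Timp3* (-0.53, 0.0411) were called lower. Without WT 10-dpf replicate 4 *Adamts12* was called lower (-0.71, 0.0359), and without WT 10-dpf replicate 3 *Adamts5* was called higher (0.48, 0.0365). In P-Apex1KO 0 of the 10 rose or fell by edgeR, where 0.0304% of genes rose and 0.228% fell, and 2 members had an unadjusted p under 0.05. DESeq2 also called 0 of the 10, and over all 19705 genes it called 176 higher and 374 lower. *Adamts2* changed there by 0.13 ± 0.16 and *Adamts9* by -0.13 ± 0.21. The test of the difference itself did not call either gene. The genotype difference moved by -0.71 ± 0.21 for *Adamts2* (adjusted p = 0.175) and by -1.02 ± 0.29 for *Adamts9* (adjusted p = 0.163). Called lower or higher in this test were 0 members by edgeR, with 2 at an unadjusted p under 0.05, against 0.396% and 0.0406% of genes, and DESeq2 called *Adamts9* (adjusted p = 0.0205). These comparisons share the 10- and 14-dpf libraries with the genotype comparisons above.

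Among 13 other ADAMTS proteases, 4 were called lower in P-Apex1KO and 0 higher at each of 6-, 10- and 14-dpf, of 12, 12 and 13 tested, and the calls did not fall on the same genes each time. Over all genes tested, 5.61%, 3.44% and 7.04% were called lower and 5.31%, 3.01% and 4.28% higher at these times. The list counts below stand beside the same shares. *Adamts7* (-0.72 ± 0.19, -0.65 ± 0.10 and -1.17 ± 0.15 at 6-, 10- and 14-dpf) and *Adamts17* (-1.26 ± 0.17, -0.59 ± 0.12 and -1.17 ± 0.30) were lower at all 3 times on the log2 scale. *Adamts14*, a procollagen N-proteinase close to ADAMTS2, was lower at 10-dpf (-0.61 ± 0.11, adjusted p = 0.0223) and 14-dpf (-1.29 ± 0.14, adjusted p = 0.00197), and *Adamts18* at 6-dpf (-1.37 ± 0.23) and 10-dpf (-0.86 ± 0.13). *Adamts3*, the other procollagen N-proteinase, was lower at 6-dpf (-1.44 ± 0.13, adjusted p = 0.000535), with 67.8 ± 12.1 CPM in WT and 25.1 ± 1.13 CPM in P-Apex1KO, and *Adamts10* was lower at 14-dpf (-0.61 ± 0.15). Of these genes *Adamts7*, *Adamts10*, *Adamts14*, *Adamts17* and *Adamts18* also stand in the list that the study picked on these libraries. Over all genes of the list tested, the median log2 fold change was -0.29, -0.11 and 0.19 at 6-, 10- and 14-dpf.

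The ADAMTS-like genes share the accessory domains but have no protease domain. Of 7 tested, 1 was lower and 1 higher at 6-dpf, and 1 was lower at each of 10- and 14-dpf, with *Thsd4* lower at 6-dpf (-0.78 ± 0.16) and 14-dpf (-0.74 ± 0.16), *Adamtsl5* higher at 6-dpf (0.52 ± 0.14) and *Adamtsl2* lower at 10-dpf (-1.04 ± 0.17). Of the 7 partners tested, *Pcsk6*, a proprotein convertase of the group that removes ADAMTS propeptides, was lower at 6-dpf (-1.67 ± 0.21) and 10-dpf (-0.72 ± 0.13). *Furin*, the main convertase of that group, was lower at 14-dpf (-0.69 ± 0.14, adjusted p = 0.0211), with 248 ± 15.0 CPM in WT and 145 ± 16.8 CPM in P-Apex1KO. *Reck*, a membrane-bound metalloproteinase inhibitor (-0.79 ± 0.16), and *Sdc4* (-0.63 ± 0.14) were lower at 6-dpf. *Lrp1*, the endocytic receptor that clears ADAMTS proteases and TIMP3, was not called at any time.

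Genes of protease substrates were called lower at 6-dpf and in both directions at 14-dpf. Of 7 proteoglycan and linker genes tested, 4 were lower at 6-dpf, 1 was lower at 10-dpf, and 1 was lower and 3 higher at 14-dpf. *Acan*, the aggrecan gene, was at 5457 ± 1155 CPM in WT and 978 ± 260 CPM in P-Apex1KO at 6-dpf (log2 fold change -2.44 ± 0.26, adjusted p = 0.00106). At 14-dpf the fitted change of *Acan* was 2.61 ± 0.39 (adjusted p = 0.00713), although the plain levels overlapped (161 to 935 CPM in WT, 640 to 1180 CPM in P-Apex1KO), and the same held for the aggrecan-binding link protein gene *Hapln1* (3.45 ± 0.45; 46.5 to 449 and 398 to 638 CPM). *Comp* was higher at 14-dpf (2.74 ± 0.43) with no overlap in CPM. These higher calls, like the lower ones at 14-dpf, come from the model with sex. In it the genotype difference rests on the 1 WT female. *Vcan*, the versican gene, was not called at 6-, 10- or 14-dpf (0.06 ± 0.11, -0.13 ± 0.12 and -0.15 ± 0.47). *Bcan* was lower at all 3 times, by -0.99 ± 0.26, -0.95 ± 0.18 and -2.48 ± 0.26. Of the 6 fibrillar procollagen genes, 4 were lower at 6-dpf, 1 at 10-dpf, and 3 were lower and 1 higher at 14-dpf. *Col1a1*, whose product ADAMTS2 trims, was at 78934 ± 11135 CPM in WT and 15486 ± 705 CPM in P-Apex1KO at 14-dpf (-2.55 ± 0.21, adjusted p = 0.000883), *Col1a2* changed by -2.35 ± 0.19 and *Col5a2* by -1.01 ± 0.25, and *Col2a1* by 1.84 ± 0.33. These calls at 14-dpf, lower and higher, likewise come from the model with sex and rest on the 1 WT female.

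Several metalloproteinases that TIMPs inhibit were called lower at the late times, and no TIMP was. Of 11 tested, 1 was lower and 1 higher at 6-dpf, 5 were lower at 10-dpf, and 4 were lower and 1 higher at 14-dpf. *Mmp9*, the gelatinase of osteoclasts and neutrophils, was at 2433 ± 732 CPM in WT and 536 ± 188 CPM in P-Apex1KO at 10-dpf (-2.05 ± 0.31), and at 4922 ± 279 and 832 ± 301 CPM at 14-dpf (-2.60 ± 0.31). *Mmp14*, the membrane-bound activator of pro-MMP2, was lower at 10-dpf (-0.71 ± 0.14) and 14-dpf (-1.24 ± 0.28), as were *Mmp16* (-1.19 ± 0.18 and -2.36 ± 0.17) and *Adam12* (-0.97 ± 0.16 and -1.80 ± 0.15). *Mmp13*, the collagenase of hypertrophic cartilage, was lower at 10-dpf (-1.24 ± 0.23). *Mmp16* was also lower at 6-dpf (-1.13 ± 0.17), *Mmp3* was higher there (1.88 ± 0.31), and *Mmp8* was higher at 14-dpf (1.14 ± 0.17). Some of these genes stand in the study's own list as well.

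**Figure D5:**
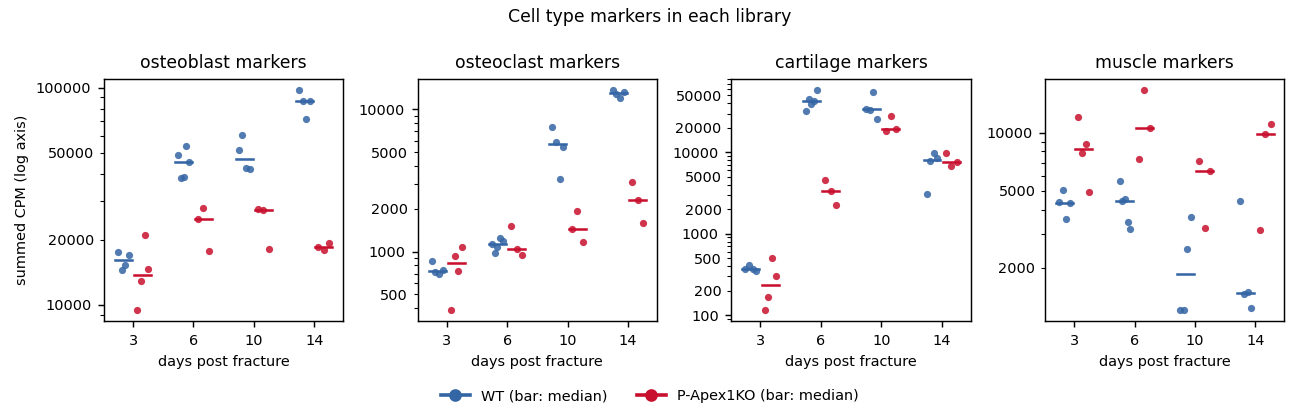
Summed CPM of 10 osteoblast, 8 osteoclast, 11 cartilage and 12 muscle markers in each library, on log axes, by days post fracture; blue is WT, red P-Apex1KO and bars are medians. The lowest osteoblast sum of WT at 14-dpf, 71536 CPM, is above the highest of P-Apex1KO, 19216 CPM. Most of the osteoblast sum at 14-dpf is *Col1a1*.

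Markers of other cell types moved with the lower *Adamts2*, *Adamts4* and *Adamts9*. The osteoblast sum was 42344 to 60720 CPM in WT and 18142 to 27570 CPM in P-Apex1KO at 10-dpf, with 7 of 10 markers lower, and 71536 to 97700 and 17852 to 19216 CPM at 14-dpf, with 6 of 10 lower. The procollagen gene *Col1a1* is among these 10 markers and made up most of their sum at 14-dpf in both genotypes. The osteoclast sum was 3257 to 7539 CPM in WT and 1169 to 1935 CPM in P-Apex1KO at 10-dpf (5 of 8 lower), and 12115 to 13762 and 1594 to 3103 CPM at 14-dpf (8 of 8 lower). Muscle sums overlapped, with 1204 to 3673 CPM in WT and 3227 to 7167 CPM in P-Apex1KO at 10-dpf. Endothelial markers at 14-dpf summed to 892 to 975 CPM in WT and 590 to 686 CPM in P-Apex1KO (3 of 8 lower), and 6 of 8 neutrophil markers were higher. Macrophage sums at 10-dpf were 650 to 832 CPM in WT and 848 to 970 CPM in P-Apex1KO, with 5 of 8 markers higher, and at 14-dpf the sums overlapped, with 5 higher and 2 lower. Adipocyte sums at 10-dpf were 80.2 to 103 CPM in WT and 135 to 213 CPM in P-Apex1KO (5 of 8 higher). The cartilage sums overlapped at 14-dpf, but the WT female had 3040 CPM where the WT males had 7827 to 9814 CPM, and the fit with sex called 10 of 11 cartilage markers higher in P-Apex1KO. The part of these cell types in the protease differences was not tested.

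The genes most like each member over the 30 libraries were taken from the 13796 protein-coding genes whose mean reached 1 CPM, by Pearson's r of log2 CPM. The points share the time course and the genotype groups, so a second r was computed on deviations from the group means. *Timp2* was most like *Mmp2*, the gelatinase whose activation TIMP2 takes part in (r = 0.967, and 0.972 within groups). *Adamts9* was closest to *Sema6d* (0.981, within groups 0.851), *Shroom2* (0.976) and *Lifr* (0.973), and *Adamts2* to *Fam171a1* (0.936) and *Serpinf1* (0.935). The r between *Adamts2* and *Adamts9* was 0.757 over all libraries and 0.184 within groups. *Adamts4* was closest to *Akt1* (0.936, within groups 0.775) and *Adamts1* to *Serpinb6a* (0.931, within groups 0.828). *Adamts5* was closest to *Slc43a2* (0.870, within groups 0.6525) and *Adamts12* to *Cpxm1* (0.897, within groups 0.891). *Timp1* was closest to *Psmd2* (0.943, within groups 0.620). *Timp3* was closest to *Cpm* (0.926, within groups 0.675), *Ecm2* (0.923, within groups 0.778) and *Spon2* (0.920, within groups 0.888). *Timp4* was closest to *Aqp7*, the glycerol channel of fat cells (0.822, within groups 0.738), and adipocyte sums ranged from 80.2 to 377 CPM over the libraries.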

How the data were processed

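RNA of each callus was depleted of ribosomal and beta globin transcripts and made into stranded libraries, sequenced from both ends. Per the submitters' processing notes and the study's methods, the authors used STAR 2.7.0d with the mm39 genome and featureCounts on Ensembl genes, keeping uniquely mapped reverse-stranded reads, and deposited raw whole-number counts per gene and sample without normalization. Genotype, day, sex and replicate came from the deposited labels. Symbols, positions and exon lengths came from GENCODE M39 on GRCm39, which holds 54749 of the 55416 IDs.

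From these counts each time point was fitted in edgeR 4.0.16 (R 4.3.3) with filterByExpr, TMM, genotype and sex, robust quasi-likelihood F tests and Benjamini-Hochberg adjustment, with a threshold of 0.05. Models of 4 groups tested changes from 3- to 6-dpf and from 10- to 14-dpf and the change of the genotype difference. CPM uses 1 set of TMM factors over all libraries, and log2 CPM a prior count of 2. Standard errors are the log2 fold change over the square root of F. Precision is limited by the 3 to 5 mice per group, and for *Timp4*, with as few as 10 reads, by depth as well.

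Alternatives were DESeq2 1.42.0, no sex term, DESeq2's size factors, library size alone, no filter, all libraries in a joint model, replicate number as a block replacing sex, and each library left out. None of the 43 pairs of libraries within a group agreed within sampling noise. The members and the gene lists were chosen with earlier results of these data known. Named are all members, *Apex1*, list genes called at 2 or more times or among the 3 largest called changes of a list and time point, and the genes most like each member; lists were of other ADAMTS, ADAMTS-like genes, substrates, TIMP targets, partners and cell type markers.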

Additional observations from a re-analysis of the deposited data

Results flagged for a closer look

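In 4 of the 50 groups of 4 or 5 libraries examined for the 10 members, 1 library lay far from the others by Dixon's criterion, and chance alone flags about 1 in 20 groups. *Adamts5* was at 111 CPM in WT replicate 3 at 10-dpf, where the other 3 WT libraries lay between 67.8 and 74.6 CPM. *Adamts5* was at 114 CPM in WT replicate 1 at 14-dpf, the 1 female of that group, where the others lay between 89.7 and 92.3 CPM. *Timp1* was at 170 CPM in WT replicate 4 at 6-dpf, beside 82.9 to 106 CPM in the other 4. *Timp1* was at 67.6 CPM in WT replicate 2 at 10-dpf, the lowest of a group whose other libraries lay between 75.9 and 76.8 CPM. The tests of 20 changes of a genotype difference called 0 members by edgeR, of which 3 had an unadjusted p under 0.05, while DESeq2 called *Adamts9* between 10- and 14-dpf.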

How the results depend on the processing

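At 14-dpf *Adamts2* and *Adamts9* were called lower in every fit tried, and no called change of a member reversed. Among these fits, that without WT replicate 1 at 14-dpf had no sex term and left only males in WT. At 6-dpf 1 member was called, 2 with library size alone, 0 with the replicate block, and 0 to 2 with each library left out. At 10-dpf 3 were called, and 0 to 4 with each left out. At 14-dpf 3 were called, and 2 to 5 with each left out. From 3- to 6-dpf in P-Apex1KO 2 were called, 4 with library size alone and 2 to 5 with each left out. From 10- to 14-dpf in WT 2 were called, 1 without the sex term, 4 with library size alone and 1 with the replicate block; in P-Apex1KO 0 were called, and 1 without the sex term or with the replicate block. The change of the difference from 10- to 14-dpf was called for 0 members, and for 1 by DESeq2. The cause of these moves was not tested. Same-numbered libraries of the genotypes correlated from -0.251 to 0.392 in their deviations, so the numbers were not taken as pairs. The block did not call *Adamts5* at 6-dpf (0.58, adjusted p = 0.106), *Adamts9* at 10-dpf (-1.18, 0.101) and from 10- to 14-dpf in WT (0.69, 0.0575), or *Adamts12* from 3- to 6-dpf in WT (0.57, 0.0956), and it did call *Timp4* at 10-dpf (1.55, 0.0394), *Timp3* at 14-dpf (0.60, 0.0462) and *Adamts4* from 10- to 14-dpf in P-Apex1KO (-0.70, 0.0270).

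Over all genes, 0 were called at 3-dpf (DESeq2 85, no filter 4, replicate block 1, all libraries 38), 2212 at 6-dpf (library size alone 3594, replicate block 677; 890 to 2359 with each left out), 1221 at 10-dpf (DESeq2 2187, no sex term 750; 42 to 1827) and 2289 at 14-dpf (no sex term 6849, all libraries 6188; 1206 to 6181). From 3- to 6-dpf in P-Apex1KO 2867 were called (replicate block 1621), and from 10- to 14-dpf 51 (DESeq2 550, no sex term 672, no filter 217, replicate block 656, all libraries 507). The difference changed for 267 genes from 3- to 6-dpf (DESeq2 718, library size alone 433, replicate block 90, all libraries 410) and for 86 from 10- to 14-dpf (DESeq2 465, library size alone 8, no filter 207). With library size alone the median over all genes shifted on the log2 scale to 0.20 at 6-dpf, 0.31 at 14-dpf, -0.27 from 3- to 6-dpf in WT, 0.10 from 10- to 14-dpf in P-Apex1KO, and 0.25 and 0.16 for the early and the late change of the difference. At the first 3 of these, 22.6%, 29.0% and 78.6% of the called genes were lower where TMM gave 51.4%, 62.2% and 49.4%. The share was 35.3% against 53.3% at 10-dpf, 61.2% against 44.3% from 10- to 14-dpf in WT, 64.6% against 88.2% in P-Apex1KO, and 32.8% against 75.7% and 75% against 90.7% for the early and the late change of the difference. Relative to the median of its comparison, each of the 18 member calls made with TMM kept its direction.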
